A study of Mus musculus with 24 samples.

Results

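Calcium pumps, channels and calpains of the mouse lens are described here through 10 genes, chosen by name with earlier results of these data known. The 10 were found by their Entrez identifiers among the 24415 genes of a table of read counts. They are the plasma membrane calcium pumps Atp2b1, Atp2b2 and Atp2b4, the reticulum pumps Atp2a2 and Atp2a3, the sodium-calcium exchanger Slc8a1, the calcium channel subunit Cacna1c, and the calpains Capn1, Capn2 and Capn3. Transcripts were counted in 24 libraries, 4 for each of 6 groups, from cortical fiber cells and from epithelia of C57BL/6 lenses. In each tissue the groups were LEGSKO mice given buthionine sulfoximine (LEGSKO+BSO), described as severely deficient in glutathione, untreated LEGSKO mice, described as mildly deficient, and untreated wild-type (WT) mice. LEGSKO is known as a knockout of Gclc, the catalytic subunit of the rate-limiting enzyme of glutathione synthesis, restricted to the lens, and BSO inhibits the same enzyme. The labels used here name no Cre driver, age, sex or batch, and do not tell if each library is a different animal, so p-values measure the spread between these libraries, which may be partly technical.

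The lens keeps free calcium in its cells low. Plasma membrane pumps of the Atp2b family and the exchanger Slc8a1 move calcium out of the cell, reticulum pumps of the Atp2a family move it into stores, and L-type channels, of which Cacna1c encodes a pore-forming subunit, let it in. Calpains are cytosolic proteases that calcium activates. In the rodent lens they are known for cutting crystallins and cytoskeletal proteins when calcium rises, as in several experimental cataracts, and Capn3 is known there for a lens-specific splice form.

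By edgeR's test within a tissue, Atp2b2 and Cacna1c were the 2 members called between conditions, both higher in LEGSKO+BSO epithelia than in LEGSKO epithelia, and their promoter sequences are shown for that reason. Promoter windows of 300 bases (250 before and 50 after an annotated start; RefSeq, GRCm38.p6) were available for 9 members, in 16 windows. Each was searched on both strands for TGACNNNGC (the core of the antioxidant response element), TGANTCA (the AP-1 site) and TGACGTCA (the cyclic AMP response element). Atp2b2 had 3 windows and Cacna1c had 3, and of each gene the 1 window with a match is printed, on the minus strand of chromosome 6. In capitals are the matches to TGACNNNGC or its reverse complement. The Atp2b2 window spans chr6:113891490-113891789 and the Cacna1c window spans chr6:119196360-119196659.
Atp2b2 window 3: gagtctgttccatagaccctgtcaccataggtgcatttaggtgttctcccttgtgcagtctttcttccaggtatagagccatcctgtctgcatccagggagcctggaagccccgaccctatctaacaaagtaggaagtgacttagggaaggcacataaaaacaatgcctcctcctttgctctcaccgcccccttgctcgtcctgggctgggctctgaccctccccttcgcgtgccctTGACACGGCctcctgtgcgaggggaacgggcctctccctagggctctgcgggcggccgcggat
Cacna1c window 1: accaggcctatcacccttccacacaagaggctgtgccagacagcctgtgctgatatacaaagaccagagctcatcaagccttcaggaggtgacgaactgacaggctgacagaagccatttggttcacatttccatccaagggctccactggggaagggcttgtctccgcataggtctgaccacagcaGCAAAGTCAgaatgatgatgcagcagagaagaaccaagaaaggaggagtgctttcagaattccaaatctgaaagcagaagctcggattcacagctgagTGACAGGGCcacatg

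The match in the Atp2b2 window, TGACACGGC, began 13 bases before the start. In the Cacna1c window GCAAAGTCA, read on the opposite strand, lay 63 bases before the start and TGACAGGGC lay 35 bases after it. The same core was present in 12.4% of 32851 mouse promoter windows of this length, TGANTCA in 7.81% and TGACGTCA in 1.79%. Among the other members the Atp2b1 window 1 held the core 2 times, at 1 and 12 bases after the start, and a Capn2 window held TGANTCA 183 bases before it. A match of this kind is a description of the letters. Which start the lens uses was not measured.

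Sequencing depth was 39.0 to 46.6 M counts in LEGSKO+BSO fibers, 22.4 to 25.5 M in LEGSKO fibers and 25.7 to 30 M in WT fibers. LEGSKO+BSO epithelia had 19.3 to 33.9 M, LEGSKO epithelia 20.2 to 25.1 M and WT epithelia 20.6 to 24.2 M. Crystallins took 50.1% of counts in WT fiber library 1 and 27.6% to 34.3% in the other fiber libraries, so that library stood apart. Markers fitted the labelled tissues: summed lens fiber markers were 47850 to 90830 CPM in fibers and 2227 to 3662 CPM in epithelia, and lens epithelium markers 111.6 to 169.7 CPM in fibers and 1083 to 1306 CPM in epithelia (CPM, counts per M (mega) of a library total scaled by TMM over all 24 libraries). In epithelia, Gclc was 43.2 to 73.0 CPM in LEGSKO+BSO, 30.8 to 48.3 in LEGSKO and 44.8 to 64.3 in WT. In fibers it was 102 to 117 CPM in LEGSKO+BSO, 98.2 to 119.7 in LEGSKO and 104 to 199 in WT. It was called in 0 of 6 comparisons within a tissue (edgeR adjusted p = 0.105 to 0.984), and a count over the whole gene does not check a deletion of part of it.

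Capn2 and Atp2a2 were by far the most abundant of the 10 transcripts per kilobase of transcript in both tissues. Capn2 encodes the large subunit of the m-type calpain and Atp2a2 the broadly expressed reticulum pump. In WT fibers Capn2 reached 68.9 ± 4.11 CPM per kilobase and Atp2a2 57.3 ± 3.15, and in WT epithelia they reached 36.5 ± 0.797 and 36.4 ± 1.91 (SD, n = 4). Their libraries overlapped in WT epithelia and not in WT fibers. In WT fibers the order went on with Slc8a1 (3.85), Capn1 (1.94), Cacna1c (1.58), Atp2b1 (0.760), Capn3 (0.348), Atp2b4 (0.0592), Atp2a3 (0.0244) and Atp2b2 (0.0133 CPM per kilobase). Among those, the libraries of Capn1 and Cacna1c overlapped, and so did those of Atp2b1 and Capn3, of Capn3 and Atp2b4, of Atp2b4 and Atp2a3, and of Atp2a3 and Atp2b2.

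In WT epithelia the third gene was Capn1 (5.76 CPM per kilobase), followed by Atp2b1 (3.25), Cacna1c (2.41), Slc8a1 (1.48), Atp2b4 (1.45), Atp2b2 (0.397), Capn3 (0.151) and Atp2a3 (0.0376). Atp2b1 overlapped with Cacna1c, Cacna1c with Slc8a1, and Slc8a1 with Atp2b4, while the remaining neighbours of Capn1, Atp2b2, Capn3 and Atp2a3 did not overlap. Lengths were those of the longest principal protein-coding transcript of GENCODE M21, and the form present in the lens may differ.

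**Figure D1:**
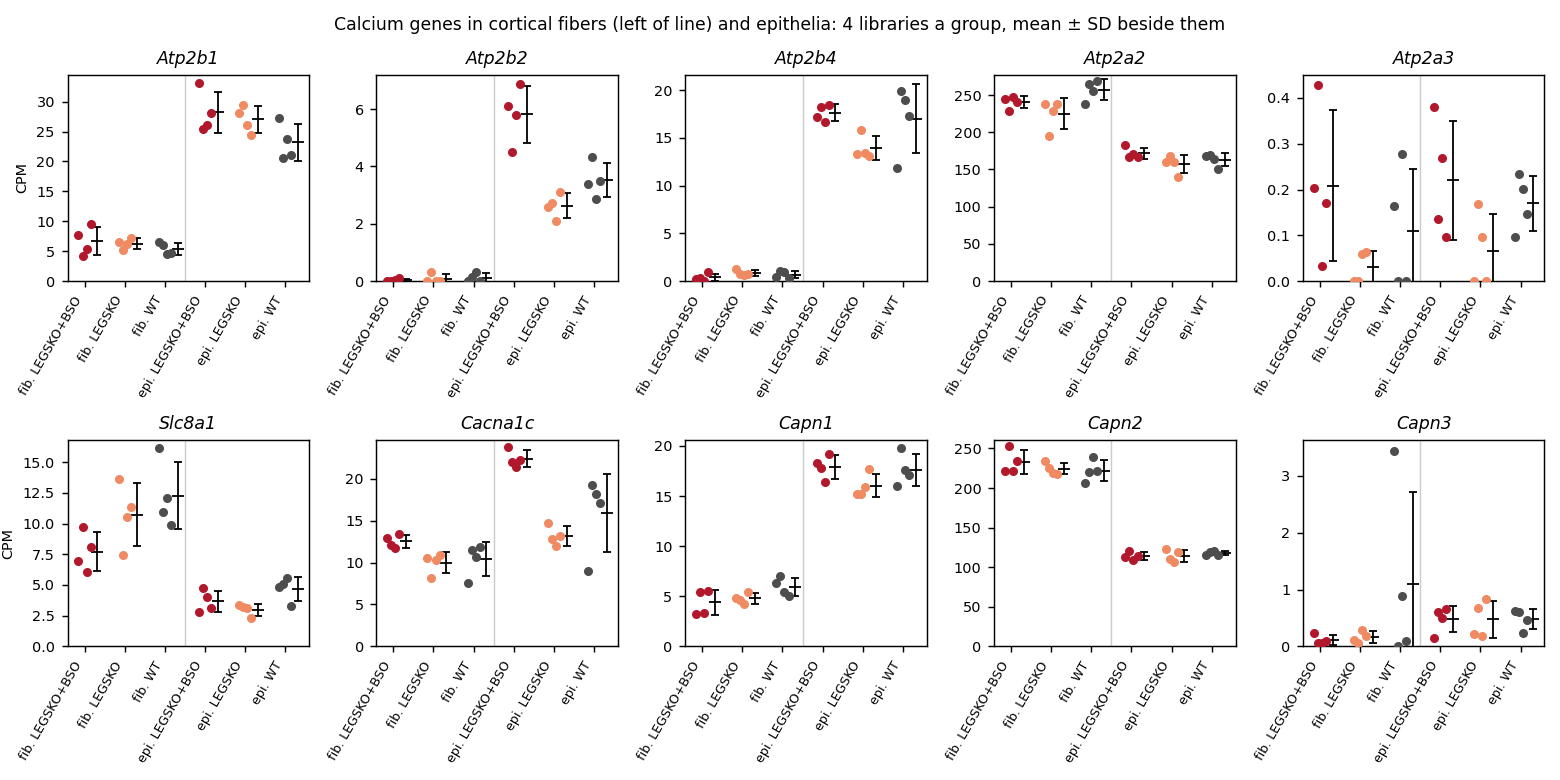
CPM of the 10 genes in 24 libraries. Each point is 1 library, fibers (fib.) stand left of the grey line and epithelia (epi.) right of it, and the bars are mean ± SD of 4 libraries. Atp2b1, Atp2b2, Atp2b4 and Capn1 sit higher in epithelia, Atp2a2, Slc8a1 and Capn2 higher in fibers, and Atp2b2 is highest in LEGSKO+BSO epithelia.

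Fibers differed from epithelia of the same condition in most members, a contrast outside the study's own design, which compares within a tissue. In WT, 8 of 9 tested members were called by edgeR's quasi-likelihood test (adjusted p below 0.05), 3 higher and 5 lower in fibers, against 76.4% of all 15560 genes tested (37.0% higher, 39.4% lower). In LEGSKO it was 8 of 9 (3 higher, 5 lower), against 75.8% of all genes (36.8% higher, 39.0% lower), and in LEGSKO+BSO 9 of 9 (3 higher, 6 lower), against 78.9% (38.1% higher, 40.8% lower). These shares lie near those of all genes, so the number of members called says little about the group, and the members are described one by one. Atp2a3 did not pass the filter on low counts, and Atp2b2 and Capn3 passed it only through epithelia and not in fibers alone. A low level in fibers was thereby part of how these 2 entered the test. In bulk samples fewer cells of a type and less RNA per cell cannot be told apart, and epithelial cells among fibers or fiber cells among epithelia would enter the values below.

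The 3 plasma membrane pumps were lower in fibers. Atp2b1, the widely expressed member (Entrez 67972, GRCm38 chr10:98914630-99026143), had 6.54, 5.97, 4.49 and 4.66 CPM in WT fibers and 27.3, 20.5, 23.8 and 21.1 CPM in WT epithelia. The groups did not overlap, and the fitted difference was 4.32-fold (log2 -2.11 ± 0.18 SE, edgeR adjusted p = 1.246e-10). It was 4.29-fold lower in LEGSKO fibers and 4.22-fold lower in LEGSKO+BSO fibers than in the epithelia of the same condition.

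Atp2b4, a pump also known from red blood cells (Entrez 381290, chr1:133702674-133801059), had 0.409, 1.02, 0.998 and 0.351 CPM in WT fibers and 11.8, 19.9, 18.9 and 17.3 CPM in WT epithelia. All 4 WT fiber libraries lay near or below 1 CPM (23.5-fold lower, log2 -4.55 ± 0.31 SE, edgeR adjusted p = 1.098e-12). In LEGSKO+BSO fibers it was 44.2-fold lower than in LEGSKO+BSO epithelia, a log2 value of -5.47 that became -6.31 without LEGSKO+BSO fiber library 4.

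Atp2b2, a pump known from neurons and sensory hair cells (Entrez 11941, chr6:113743831-114042613), was nearly absent from fibers. Its raw counts summed to 4 in LEGSKO+BSO fibers, 5 in LEGSKO fibers and 9 in WT fibers, against 903, 341 and 453 in the epithelia of these conditions in the same order. Its CPM was 0, 0.139, 0.333 and 0 in WT fibers and 3.38, 4.32, 2.88 and 3.50 in WT epithelia. The fitted difference was 27.2-fold (edgeR adjusted p = 2.557e-08). Because Atp2b2 passed the filter only through epithelia, this p-value is not independent support for its low level in fibers. With so few counts the size rests on single libraries: the log2 value of -4.77 in WT became -5.88 without WT fiber library 3, -5.03 in LEGSKO became -9.21 without LEGSKO fiber library 2, and -7.29 in LEGSKO+BSO became -8.62 without LEGSKO+BSO fiber library 4.

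The make-up of the plasma membrane pump transcripts differed between the tissues accordingly. Atp2b1 took 94.4% ± 3.65 of the counts of the 3 genes in LEGSKO+BSO fibers, 87.0% ± 4.53 in LEGSKO fibers and 87.0% ± 8.05 in WT fibers (SD, n = 4). In epithelia it took 54.5% ± 2.83 in LEGSKO+BSO, 62.0% ± 1.68 in LEGSKO and 53.2% ± 7.85 in WT, with Atp2b4 at 34.3%, 31.9% and 38.8% and Atp2b2 at 11.2%, 6.05% and 8.07% in that order of conditions. These shares were not corrected for transcript length.

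The reticulum pump and the exchanger were higher in fibers. Atp2a2 (Entrez 11938, chr5:122453513-122502225) had 237, 265, 256 and 269 CPM in WT fibers and 168, 170.1, 164 and 151 CPM in WT epithelia. It was 1.57-fold higher with no overlap (log2 0.65 ± 0.07 SE, edgeR adjusted p = 9.383e-09), 1.43-fold higher in LEGSKO fibers and 1.40-fold higher in LEGSKO+BSO fibers. Atp2a3, the second reticulum pump gene (Entrez 53313, chr11:72961169-72993043), had 0 to 14 counts in fiber libraries and 0 to 15 in epithelial libraries. Atp2a2 held at least 99.79% of the counts of the pair in every library.

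Slc8a1 (Entrez 20541, chr17:81373105-81738387) had 16.1, 10.9, 12.1 and 9.87 CPM in WT fibers and 4.87, 5.09, 5.56 and 3.30 CPM in WT epithelia. Every fiber library lay above every epithelial library (2.59-fold, log2 1.37 ± 0.21 SE, edgeR adjusted p = 1.613e-06). It was 3.59-fold higher in LEGSKO fibers and 2.12-fold higher in LEGSKO+BSO fibers than in epithelia of the same condition.

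Cacna1c (Entrez 12288, chr6:118587240-119197384) differed less between the tissues. It had 7.53, 11.5, 10.7 and 11.9 CPM in WT fibers and 9.03, 19.2, 18.1 and 17.1 CPM in WT epithelia. The groups overlapped because WT epithelial library 1 lay at 9.03 CPM (1.51-fold lower in fibers, log2 -0.59 ± 0.16 SE, edgeR adjusted p = 0.00199). In LEGSKO+BSO it was 1.79-fold lower in fibers (adjusted p = 2.824e-05). In LEGSKO it was 1.32-fold lower (adjusted p = 0.0314), a call lost without LEGSKO epithelial library 1 (adjusted p = 0.0863) or LEGSKO fiber library 2 (adjusted p = 0.1001).

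The calpains went in opposite directions. Capn2 (Entrez 12334, chr1:182467253-182517610) had 207, 221, 239 and 222 CPM in WT fibers and 116, 119.6, 120.01 and 115 CPM in WT epithelia. It was 1.89-fold higher in fibers (log2 0.92 ± 0.06 SE, edgeR adjusted p = 1.508e-12). Capn1, the large subunit of the mu-type calpain (Entrez 12333, chr19:5988545-6015825), had 6.30, 6.99, 5.43 and 5.01 CPM in WT fibers and 16.01, 19.8, 17.6 and 17.1 CPM in WT epithelia. It was 2.97-fold lower in fibers (log2 -1.57 ± 0.14 SE, edgeR adjusted p = 3.07e-10), 3.34-fold lower in LEGSKO and 4.08-fold lower in LEGSKO+BSO. Of the counts of the 3 calpains, Capn1 held 1.83% ± 0.434, 2.09% ± 0.244 and 2.60% ± 0.454 in LEGSKO+BSO, LEGSKO and WT fibers, and 13.5% ± 0.716, 12.2% ± 0.898 and 12.97% ± 0.841 in the matching epithelia (SD, n = 4).

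Capn3 (Entrez 12335, chr2:120463593-120504919) was scarce, and 1 library carried most of its WT fiber counts. It had 42, 0, 16 and 2 counts in WT fibers, or 3.44, 0, 0.887 and 0.1002 CPM, against 0.617, 0.602, 0.231 and 0.467 CPM in WT epithelia. The high value belonged to WT fiber library 1, which also had the highest crystallin share, and the part of that library in the value was not tested. The log2 difference between WT tissues was 1.10 ± 0.80 SE (edgeR adjusted p = 0.2135) and -0.61 without that library. In LEGSKO fibers it was lower by 1.51 on the log2 scale (adjusted p = 0.163). Capn3, too, passed the filter only through epithelia, which limits a p-value for a lower level in fibers. In LEGSKO+BSO fibers, with 2 to 7 counts a library, Capn3 was 4.04-fold lower than in epithelia (adjusted p = 0.0480). That call was lost with the replicate number as a block within the condition (adjusted p = 0.0736) and without any 1 of 6 libraries (highest adjusted p = 0.110), namely LEGSKO+BSO epithelial library 2, 3 or 4 or LEGSKO+BSO fiber library 2, 3 or 4. Capn3 shares 386 exon bases on its own strand with Ganc, so reads of the pair can be split between them.

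The direction and call of each member in these contrasts were the same with size factors by the median of ratios and with crystallin genes left out. The median log2 difference of all genes between WT tissues was -0.09 with TMM, -0.15 with the median of ratios and -0.08 without crystallins. Atp2b4 shares 6 exon bases with Mir6903 on its own strand. Exon overlaps with genes on the opposite strand were 1717 bases of Capn2 with Gm37885, 394 bases of Capn1 with Gm10814, 296 bases of Slc8a1 with AC122399.1 and 8 with Gm11096, and 83 bases of Atp2a2 with Gm43361. Without strand information their reads cannot be told apart.

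**Figure D2:**
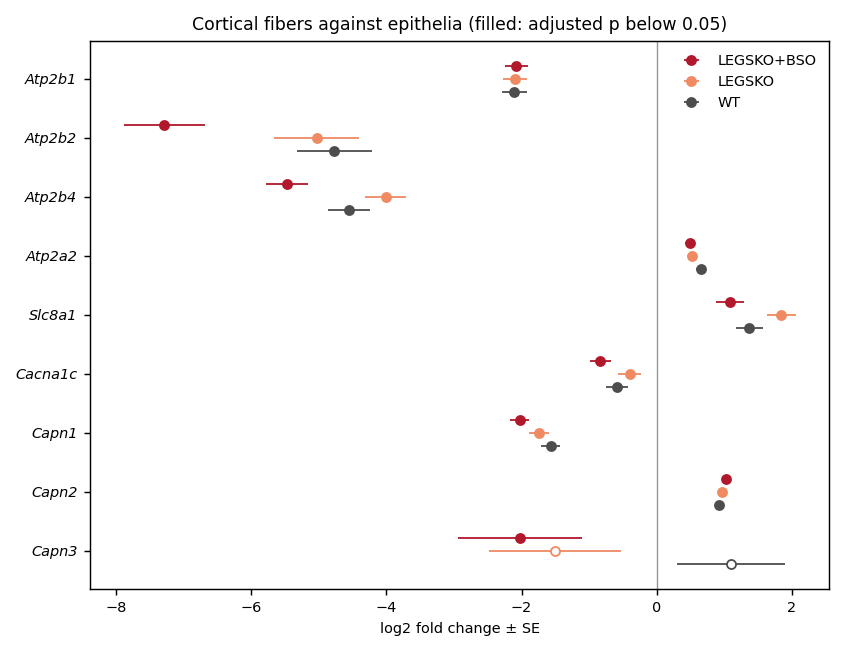
Log2 fold change (± SE) of fibers against epithelia within LEGSKO+BSO, LEGSKO and WT for the 9 tested members, from the fit of 24 libraries. Filled points have an adjusted p below 0.05. Atp2b2 and Atp2b4 lie furthest to the left, Atp2a2, Slc8a1 and Capn2 lie right of 0 in all 3 conditions, and Capn3 differs in sign between WT and the other conditions.

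Glutathione deficiency was examined within each tissue. The comparisons against WT share the WT libraries, and those with LEGSKO+BSO share the LEGSKO+BSO libraries. LEGSKO against WT and LEGSKO+BSO against LEGSKO share the LEGSKO libraries with opposite sign, so a low LEGSKO value enters both. Between LEGSKO+BSO and LEGSKO epithelia, 2 of 9 tested members rose and 0 fell, against 0.722% of 15089 genes called in either direction, 0.325% higher and 0.398% lower. Because the members were chosen with earlier results of these data known, their share cannot be read as an enrichment of calcium genes.

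Atp2b2 rose 2.25-fold in LEGSKO+BSO epithelia relative to LEGSKO epithelia. Its CPM was 6.12, 4.49, 5.80 and 6.86 in LEGSKO+BSO, 2.59, 2.71, 2.08 and 3.13 in LEGSKO and 3.38, 4.32, 2.88 and 3.50 in WT epithelia. All 4 LEGSKO+BSO libraries lay above all LEGSKO and all WT libraries. The raw counts behind them were 242, 132, 172 and 357 in LEGSKO+BSO, 82, 81, 65 and 113 in LEGSKO and 104, 129, 100 and 120 in WT. Against LEGSKO the log2 fold change was 1.17 ± 0.17 SE (edgeR adjusted p = 0.0143). The call was lost without LEGSKO epithelial library 2 (adjusted p = 0.0534) or 4 (0.0520), without LEGSKO+BSO epithelial library 1 (0.0541) or 3 (0.0612), and with all 24 libraries in 1 fit (0.0903), while the log2 value stayed between 1.08 and 1.27 without any 1 library.

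Cacna1c rose 1.72-fold in the same comparison. It had 23.8, 21.95, 21.4 and 22.2 CPM in LEGSKO+BSO, 14.7, 12.9, 11.98 and 13.1 in LEGSKO and 9.03, 19.2, 18.1 and 17.1 in WT epithelia. Again the LEGSKO+BSO libraries lay above all others. The log2 fold change against LEGSKO was 0.78 ± 0.16 SE (edgeR adjusted p = 0.0428), between 0.75 and 0.85 without any 1 library. The call was lost without any 1 of 7 of the 8 libraries, LEGSKO+BSO library 2 being the exception (highest adjusted p = 0.123), and with the replicate number as a block (adjusted p = 0.0786).

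Summed markers of pigmented iris and ciliary body were also highest in LEGSKO+BSO epithelia, and the sums ranked those 4 libraries as Atp2b2 did. Their 6 genes summed to 40.2, 27.8, 33.5 and 66.1 CPM in LEGSKO+BSO epithelial libraries 1 to 4, to 16.99 to 21.97 CPM in LEGSKO epithelia, where Mlana was at 0, and to 19.0 to 26.3 CPM in WT epithelia. Gpnmb made up most of the rise over LEGSKO, with means of 18.45 CPM in LEGSKO+BSO and 2.864 CPM in LEGSKO epithelia. Its LEGSKO+BSO libraries ran from 4.696 to 42.46 CPM. Tyr (13.36 and 11.76 CPM in that order), Tyrp1 (3.283 and 2.305 CPM) and Pmel differed less. The ranking of the sums without Gpnmb was not tested. Of the list, Dct (log2 2.61, edgeR adjusted p = 0.0165) and Gpnmb (log2 2.71, adjusted p = 0.0248) were called between LEGSKO+BSO and LEGSKO epithelia. So was Foxe3 of the lens epithelium list (log2 1.00, adjusted p = 0.0165). That list did not move together. Pax6, Cdh1 and Pdgfra had lower means in LEGSKO+BSO (441, 321.7 and 116.5 CPM) than in LEGSKO epithelia (454.3, 333.5 and 160.6 CPM). All 9 retinal neuron and photoreceptor markers had counts, with sums of 52.2 to 132 CPM in LEGSKO+BSO, 70.0 to 253 in LEGSKO and 107 to 337 in WT epithelia. Muscle and stroma markers summed to 187 to 219 CPM in LEGSKO+BSO, 216 to 243 in LEGSKO and 115 to 158 in WT epithelia. The part of other cell types in the differences of Atp2b2 and Cacna1c was not tested.

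The other members of this comparison were not called. Atp2b4 had 17.2, 18.2, 16.7 and 18.5 CPM in LEGSKO+BSO epithelia and 13.4, 15.8, 13.4 and 13.1 in LEGSKO epithelia, groups that did not overlap (log2 0.36 ± 0.13 SE, edgeR adjusted p = 0.147). In all, 3 of 9 members did not overlap between these groups, against 12.8% of all genes. Atp2b1 (log2 0.08), Atp2a2 (0.15), Slc8a1 (0.31), Capn1 (0.18), Capn2 (0.02) and Capn3 (0.02) had adjusted p-values of 0.226 to 0.989. The median log2 change of the 9 members was 0.18, against 0.00 for all genes.

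Against WT, LEGSKO+BSO epithelia had 0 of 9 members called by edgeR, with 1.17% of all genes called. At an unadjusted p below 0.05 there were 3, and the largest of these p-values by edgeR ranked 1087 of 15089 genes. Many genes thus lay below this cutoff, and the count says little about the members. DESeq2 called 1 member, Atp2b2 (adjusted p = 0.00533), and 565 of all genes. Atp2b2 had a log2 fold change of 0.73 ± 0.17 SE (edgeR adjusted p = 0.0512) and Cacna1c of 0.50 ± 0.16 SE (adjusted p = 0.150). They were the 2 members whose groups did not overlap, against 7.61% of all genes. Atp2b1 had 33.1, 25.4, 26.1 and 28.2 CPM in LEGSKO+BSO epithelia and 27.3, 20.5, 23.8 and 21.1 in WT epithelia (log2 0.29, adjusted p = 0.204). Without LEGSKO+BSO epithelial library 2, Atp2b2 was called (adjusted p = 0.0187).

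LEGSKO epithelia had 0 of 9 members called against WT by edgeR (0.842% of all genes). At an unadjusted p below 0.05 there were 3, a count that again says little, as the largest of these p-values ranked 1524 of 15089 genes. DESeq2 called 0 members and 447 of all genes. Slc8a1 had the largest log2 value, -0.67 ± 0.20 SE (adjusted p = 0.139), with 3.38, 3.22, 3.11 and 2.30 CPM in LEGSKO epithelia and 4.87, 5.09, 5.56 and 3.30 in WT epithelia, where 1 WT library fell among the LEGSKO ones. Atp2b2 had -0.44 (adjusted p = 0.272) and Atp2b4 -0.30 (adjusted p = 0.290). WT epithelial library 1, the lowest of its group in Atp2b4 and Cacna1c and the highest in summed retinal markers at 337 CPM, decided 2 calls: without it Atp2b4 (log2 -0.44, adjusted p = 0.0221) and Cacna1c (log2 -0.48, adjusted p = 0.0118) were lower in LEGSKO.

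In fibers no member was called by edgeR in any of the 3 comparisons, with 7 tested. Of all 13436 genes, 5.52% were called in LEGSKO+BSO against WT, 1.64% in LEGSKO against WT and 0.0298% in LEGSKO+BSO against LEGSKO. At an unadjusted p below 0.05 the members numbered 2, 1 and 2 in that order. The largest of these p-values by edgeR ranked 2668, 1186 and 870 of the 13436 genes. Many genes thus lay below this cutoff, and these counts say little about the members. DESeq2 called 2, 0 and 0 members and 1138, 501 and 81 of all genes.

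Slc8a1 was nearest to a call. It had 6.96, 9.70, 6.08 and 8.09 CPM in LEGSKO+BSO fibers, 13.6, 7.41, 10.5 and 11.3 in LEGSKO fibers and 16.1, 10.9, 12.1 and 9.87 in WT fibers. LEGSKO+BSO libraries all lay below the WT libraries, the highest of them at 9.70 CPM and the lowest WT library at 9.87 CPM, and overlapped with LEGSKO. The log2 fold change against WT was -0.65 ± 0.19 SE (edgeR adjusted p = 0.0621; DESeq2 adjusted p = 0.0217), and 1 of 7 members did not overlap, against 14.4% of all genes. It was called by edgeR with no filter on low counts (adjusted p = 0.0412) and without LEGSKO+BSO fiber library 2 (adjusted p = 0.0457). Against LEGSKO fibers it was -0.48 (adjusted p = 0.405).

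Capn1 had 3.24, 5.45, 3.35 and 5.53 CPM in LEGSKO+BSO fibers, 4.83, 4.66, 4.22 and 5.47 in LEGSKO fibers and 6.30, 6.99, 5.43 and 5.01 in WT fibers. The groups overlapped (log2 -0.43 ± 0.19 SE in LEGSKO+BSO against WT, edgeR adjusted p = 0.211). Cacna1c had 12.98, 12.1, 11.7 and 13.4 CPM in LEGSKO+BSO fibers and 10.6, 8.11, 10.3 and 10.9 in LEGSKO fibers, with no overlap (log2 0.33 ± 0.13 SE, adjusted p = 0.404), and was the 1 member of 7 without overlap in that comparison, against 8.96% of all genes.

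Capn2, the most abundant of the members per kilobase in fibers, had small differences between conditions. In fibers it had 222, 254, 221 and 235 CPM in LEGSKO+BSO and 234, 226, 219.7 and 218 in LEGSKO. Its log2 values over the 6 comparisons within a tissue ran between -0.05 and 0.07, each with an SE of 0.06 to 0.07 (adjusted p = 0.585 to 0.950). Atp2a2 had 238, 195, 228 and 238 CPM in LEGSKO fibers against 237, 265, 256 and 269 in WT fibers (log2 -0.19 ± 0.07 SE, edgeR adjusted p = 0.227), and Atp2b1 and Atp2b4 were not called in fibers either. Atp2b2, Capn3 and Atp2a3 did not pass the filter there. DESeq2, which tested Capn3, gave log2 -3.23 in LEGSKO+BSO against WT fibers (adjusted p = 0.0364), and edgeR with all 24 libraries in 1 fit gave -3.10 (adjusted p = 0.0479), a difference that rests on WT fiber library 1 with 42 of the 60 WT counts.

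**Figure D3:**
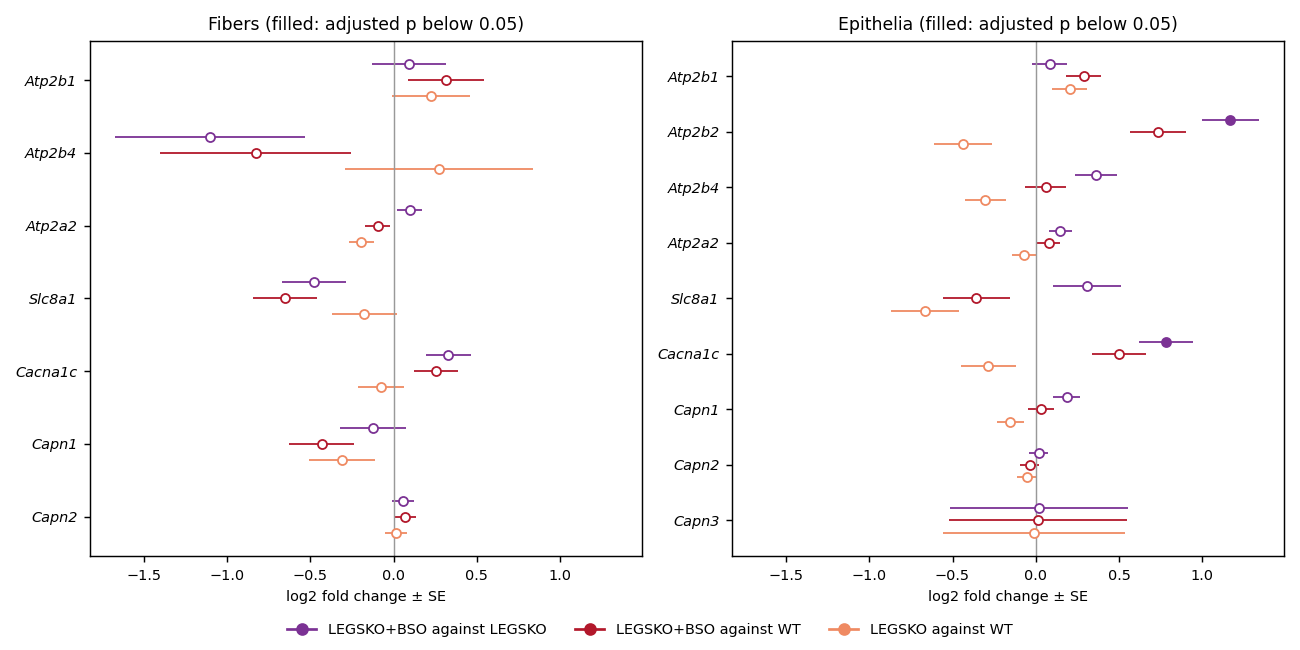
Log2 fold change (± SE) between conditions in fibers (left, 7 tested members) and in epithelia (right, 9 tested members). Filled points, adjusted p below 0.05, are Atp2b2 (1.17) and Cacna1c (0.78) in LEGSKO+BSO against LEGSKO epithelia.

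Whether fibers and epithelia responded unequally to a condition was tested with an interaction term in the fit of 24 libraries. By edgeR 0 of 9 members were called in each of the 3 interactions, against 0.276% of all genes for LEGSKO+BSO against WT, 0.103% for LEGSKO against WT and 0.0321% for LEGSKO+BSO against LEGSKO. The members at an unadjusted p below 0.05 numbered 3, 1 and 2 in that order. The largest of these p-values by edgeR ranked 1520, 1391 and 707 of 15560 genes. DESeq2 called 0 members in each, and 302, 78 and 61 of all genes. For LEGSKO+BSO against WT, the fiber minus epithelial log2 values were -2.52 ± 1.10 SE for Atp2b2 (adjusted p = 0.313), -0.46 ± 0.20 SE for Capn1 (adjusted p = 0.312) and -3.11 ± 1.22 SE for Capn3 (adjusted p = 0.257). For LEGSKO+BSO against LEGSKO they were -1.46 ± 0.50 SE for Atp2b4 (adjusted p = 0.299) and -0.76 ± 0.29 SE for Slc8a1 (adjusted p = 0.349). In the same comparison the value was -0.44 ± 0.23 SE for Cacna1c (adjusted p = 0.503), so its rise in epithelia was not shown to differ from the response of fibers. Atp2b2 had -2.26 ± 1.29 SE (adjusted p = 0.551), but with 4 and 5 counts in these fiber groups its response in fibers could not be measured at this depth.

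The remaining calcium-handling genes were grouped in 8 lists of 97 genes, 96 of them in the table, chosen with earlier results of these data known. In WT fibers against WT epithelia 26 rose and 44 fell of 83 tested, 84.3% against 76.4% of all genes. In LEGSKO it was 29 and 44, and in LEGSKO+BSO 26 and 47. Of the 83 genes, 17 passed the filter on low counts through epithelia and not in fibers alone, so their low level in fibers was part of how they entered the test, and 15 of these 17 are among the 44 that fell. The counts of single lists below describe WT and can be read against the 37.0% of all genes that were higher and the 39.4% that were lower in WT fibers. Subunits of voltage-gated calcium channels had 2 higher and 14 lower of 17 and a median log2 value of -1.88, against -0.09 for all genes. Of those 17, 8 passed through epithelia alone, among them Cacna1i and Cacnb3, and 7 of these 8 are among the 14 lower ones. The T-type channels Cacna1h and Cacna1i were 0.623 ± 0.326 and 0.127 ± 0.0987 CPM in WT fibers, against 23.2 ± 3.01 and 12.1 ± 0.951 CPM in WT epithelia (SD, n = 4; edgeR adjusted p = 5.12e-13 and 5.88e-13), and the beta subunit Cacnb3 fell 20.0-fold. Cacna1d, the pore subunit of another L-type channel, was 2.16-fold higher in fibers, at 68.9 ± 2.49 against 31.9 ± 6.14 CPM, and is named here after its values were seen.

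Pumps and exchangers outside the 10 genes had 3 higher and 7 lower of 11 (median log2 -1.04). Of those 11, 3 passed the filter through epithelia alone, and these 3 are among the 7 lower ones. The median was -0.41 in LEGSKO and -1.05 in LEGSKO+BSO. The potassium-dependent exchanger Slc24a4 stood out with 174 ± 28.8 CPM in WT fibers and 4.29 ± 0.914 CPM in WT epithelia (SD, n = 4; 40.7-fold, edgeR adjusted p = 1.38e-16). Its relative Slc24a2, named after its values were seen, was 14.3-fold higher at 214 against 15.01 CPM. The Golgi calcium pump Atp2c1 was 2.44-fold higher and the mitochondrial exchanger Slc8b1 6.38-fold lower in fibers.

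The calpain family and its inhibitor had 3 higher and 5 lower of 11 (median log2 -0.46). Of those 11, Capn6 and Capns2 passed the filter through epithelia alone and are among the 5 lower ones. Capns1, the small subunit that pairs with Capn1 and Capn2, was 2.23-fold higher in fibers, at 219 ± 22.5 CPM against 98.0 ± 5.001 CPM in WT epithelia (SD, n = 4; edgeR adjusted p = 9.957e-13). Capn7 was 1.51-fold higher and Capn6 was lower, at 0.0277 against 0.986 CPM. Its fitted log2 value of -4.93 became -7.81 without WT fiber library 3. The calpain inhibitor calpastatin, Cast, was 1.24-fold higher (adjusted p = 0.00339) and is named after its values were seen.

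Genes of mitochondrial calcium uptake had 5 higher and 1 lower of 8 (median log2 0.99), all 8 having passed the filter in both tissues. The higher ones included the uniporter subunits Micu2 (3.53-fold) and Smdt1 (5.43-fold) and the regulator Mcur1 (3.65-fold). The list named pump regulators had 4 higher and 1 lower of 5 (median 1.31). The higher ones included the calmodulin gene Calm3 (3.88-fold) and the ion transport regulator Fxyd1 (6.35-fold). The lower one, Mrln, passed the filter through epithelia alone. An effect of these genes on the calcium pumps was not tested. Genes of store release and entry had 4 higher and 7 lower of 14 (median -0.38): the ryanodine receptor Ryr2 (5.61-fold) and the store sensor Stim2 (2.46-fold) were higher and the inositol trisphosphate receptor Itpr3 9.41-fold lower. Other calcium-permeable channels had 0 higher and 5 lower of 7 (median -0.79), with Trpv4 7.38-fold, Piezo1 2.97-fold and Trpm7 1.82-fold lower. The list named calcium buffers had 5 higher and 4 lower of 10 (median 0.18). In it S100a10 was 2.73-fold and Casq1 5.33-fold higher and Rcn2 2.11-fold lower. Calcium binding by the products of the listed genes, S100a10 among them, was not tested. Of those 10, Calb1 and Calb2 passed the filter through epithelia alone and are among the 4 lower ones.

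**Figure D4:**
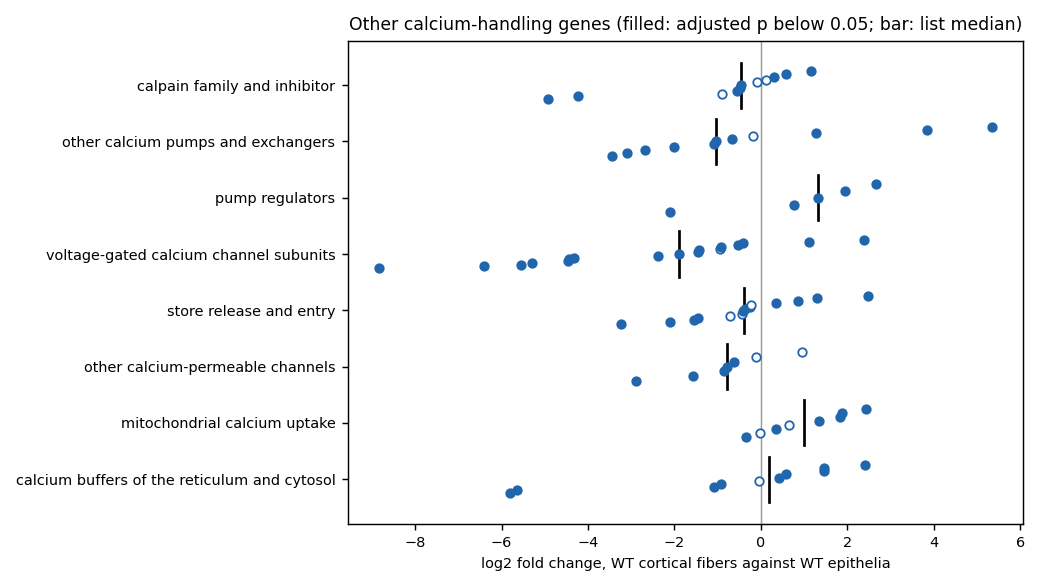
Log2 fold change of WT fibers against WT epithelia for the 83 tested genes of the 8 other calcium lists. Each point is 1 gene, filled where the adjusted p is below 0.05, and the black bar is the list median, which runs from -1.88 for voltage-gated channel subunits to 1.31 for pump regulators.

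Between conditions few of these genes were called. In LEGSKO+BSO against WT epithelia 3 of 82 fell and 0 rose (3.66% against 1.17% of all genes). The sum of corneal and conjunctival epithelium markers also differed, at 40.1 to 47.0 CPM in LEGSKO+BSO, 43.9 to 56.4 in LEGSKO and 14.0 to 26.7 in WT epithelia. Krt15 (means of 35.0, 41.0 and 15.9 CPM in that order) and Krt4 (7.89, 8.22 and 5.92 CPM) made up nearly all of it. Krt12, Krt5, Krt13 and Krt14 were detected in each group with means of at most 0.31 CPM. The part of such cells in the calls was not tested. Cacna1i had 6.38 ± 0.595 CPM in LEGSKO+BSO and 12.1 ± 0.951 CPM in WT (SD, n = 4; edgeR adjusted p = 0.00121), and Cacna1h 11.97 ± 2.20 and 23.2 ± 3.01 CPM in the same order (adjusted p = 0.00721). The exchanger Slc8a3 had 0.528 ± 0.0766 CPM in LEGSKO+BSO and 1.49 ± 0.592 CPM in WT (adjusted p = 0.0430), a call lost without WT library 1 or 3 or without any 1 LEGSKO+BSO library (highest adjusted p = 0.135). Against LEGSKO epithelia 1 of 82 fell (1.22%), Cacna1i, at 6.38 ± 0.595 against 9.32 ± 1.21 CPM (adjusted p = 0.0428). That call was lost without any 1 of 7 of the 8 libraries, LEGSKO+BSO library 2 being the exception (highest adjusted p = 0.140). With all 24 libraries in 1 fit, Cacna1i had adjusted p = 0.0754 against WT and 0.235 against LEGSKO. In LEGSKO against WT epithelia 0 of 82 were called by edgeR. DESeq2 called 6 in LEGSKO+BSO against WT epithelia, 5 in LEGSKO+BSO against LEGSKO and 2 in LEGSKO against WT. In that order it called 565, 679 and 447 of all genes.

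In fibers the calsequestrin Casq1, a calcium buffer of the reticulum, was higher in both deficient groups, at 122 ± 6.15 CPM in LEGSKO+BSO, 112 ± 15.3 CPM in LEGSKO and 81.1 ± 7.48 CPM in WT fibers (SD, n = 4). Its edgeR adjusted p against WT was 0.00316 in LEGSKO+BSO and 0.0207 in LEGSKO, and the shared WT libraries link these results. The sum of muscle and stroma markers was also higher, at 891 to 1086 CPM in LEGSKO+BSO, 939 to 1124 in LEGSKO and 741 to 846 in WT fibers. Acta2, at 993, 998 and 763 CPM in the same order, made up most of these sums and was called against WT in LEGSKO+BSO (adjusted p = 0.0192) and in LEGSKO (adjusted p = 0.0345). The list did not move together. In that order Myl9 (2.43, 3.09 and 1.36 CPM) and Col1a2 (0.491, 0.705 and 0.201 CPM) were higher in the deficient groups. Acta1 (18.1, 18.5 and 22.3 CPM) and Myh11 (0.418, 0.341 and 0.614 CPM) were lower. Des was at 0 in LEGSKO+BSO and Cnn1 and Col1a1 in LEGSKO fibers, and the part of other cell types in the difference of Casq1 was not tested. In LEGSKO+BSO against WT fibers 2 of 66 rose and 2 fell (6.06% against 5.52% of all genes). The channel auxiliary subunit Cacng4 rose 1.83-fold (adjusted p = 0.00243), while the reticulum protein Rcn1 fell 1.36-fold (adjusted p = 0.0184) and the channel Pkd2 fell 1.26-fold (adjusted p = 0.0440). In LEGSKO against WT fibers 1 rose and 1 fell of 66 (3.03% against 1.64%), Casq1 and the store entry channel Orai3 (1.38-fold lower, adjusted p = 0.0423). The calls of Casq1 and Orai3 in LEGSKO were lost without LEGSKO fiber library 2 or 3 or WT fiber library 3, among others (highest adjusted p = 0.0914 for Casq1 and 0.109 for Orai3), that of Rcn1 without LEGSKO+BSO fiber library 1 or 3 (0.0696), and that of Pkd2 without LEGSKO+BSO fiber library 1, 3 or 4 or WT fiber library 2, 3 or 4 (0.142). In LEGSKO+BSO against LEGSKO fibers 0 of 66 were called by edgeR and 1 by DESeq2. In LEGSKO+BSO against WT fibers DESeq2 called 6, and in LEGSKO against WT fibers 5. Of all genes it called 81, 1138 and 501 in these 3 comparisons. For the interactions edgeR called 0 of 83 in each. DESeq2 called 3 for LEGSKO+BSO against WT, with 302 of all genes. It called 0 for LEGSKO against WT (78 of all genes) and for LEGSKO+BSO against LEGSKO (61 of all genes).

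The genes whose pattern was most like that of Atp2b2 and Cacna1c were taken over 24 libraries from 12213 genes, by Pearson r of log2(CPM + 1) after subtraction of each tissue's mean. For Atp2b2 they were Rgl3 (r = 0.799), Ap5z1 (0.793) and Clcf1 (0.785). For Cacna1c they were Abca2 (0.838), Fgfr3 (0.834) and Unc13b (0.828). These values describe libraries that share their depth, tissue piece and condition, and the highest of so many values is high by selection.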

How the data were processed

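RNA was sequenced from lens cortical fibers and epithelia of 3 conditions, 4 libraries a group. The authors deposited raw counts per gene for 24415 Entrez identifiers. The submitters' processing notes list bcl2fastq, CASAVA 1.8, TopHat and DESeq, with build mm10 (GRCm38). No source used here gives the counting tool, annotation or strand setting. Symbols came from RefSeq genes of GRCm38, which matched 24334 identifiers. The 81 others, with 0.914% of counts, stayed in the tests.

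The tests used edgeR 4.0.16 under R 4.3.3 (quasi-likelihood F test, two-sided, TMM, filterByExpr at a count of 10 and a total of 15, Benjamini-Hochberg adjustment over all genes tested, threshold 0.05). Each tissue was fitted with its 12 libraries (15089 genes in epithelia, 13436 in fibers). Interactions and fibers against epithelia came from 1 fit of 24 libraries (15560 genes). Printed CPM are on the scale of that fit, from which the scale within a tissue differed by a factor of 0.986 to 1.019. The procedure was checked on simulated counts. In LEGSKO+BSO against LEGSKO epithelia it recovered 50.7% of 1.5-fold and 77.6% of 2-fold changes. In LEGSKO+BSO against WT fibers these shares were 55.2% and 88.1%, and in WT fibers against WT epithelia 47.8% and 67.2%. Changes near 1.5-fold could thus be missed. Alternatives were DESeq2 1.42.0, other size factors, no filter, crystallins left out (fit of 24 libraries only), the replicate number as a block and each library left out.

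Between LEGSKO+BSO fibers and epithelia every same-numbered pair had r over 0.1 (0.101 to 0.244), the condition set for pairing. In WT 3 of 4 pairs did (r = 0.0995 to 0.361), and in LEGSKO 0 did. The block within a condition was added after seeing the data, and changed 1 member's call, that of Capn3. No 2 libraries of a group were duplicates (chi-square of 5.27 to 345 per degree of freedom over 36 pairs). The members, calcium lists and marker lists were chosen with earlier results of these data known. All members are named, with up to 3 genes of a list that had the smallest adjusted p below 0.05 within a tissue or between WT tissues, except 1 that is not reported here.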

Additional observations from a re-analysis of the deposited data

Results flagged for a closer look

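Of 60 sets of 4 libraries, a member in a group, 2 held a library far from the others. Chance gives about 1 in 20. Atp2b2 in LEGSKO fiber library 2 was 0.319 CPM and 0 in the other 3 libraries. Atp2b4 in LEGSKO epithelial library 2 was 15.8 CPM, against a group median of 13.4 CPM.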

How the results depend on the processing

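No result changed direction under any alternative in which it was called. Size factors by the median of ratios changed the call of no member. Leaving out crystallins, tried only in the fit of 24 libraries and not in the comparisons within a tissue, changed none there. The counts of called members moved as follows. In LEGSKO+BSO against WT epithelia, 0 became 1 with no filter on low counts and 1 with DESeq2. In LEGSKO+BSO against LEGSKO epithelia, 2 became 1 with the replicate block and 1 with all 24 libraries in the fit. In LEGSKO+BSO against WT fibers, 0 became 1 with no filter, 2 with DESeq2 and 1 with all 24 libraries. Without 1 library the ranges were 0 to 2 in LEGSKO against WT epithelia and in LEGSKO+BSO against LEGSKO epithelia, 0 to 1 in LEGSKO+BSO against WT in either tissue, 0 to 0 in the other fiber comparisons and in the interactions, and 8 to 9, 7 to 8 and 8 to 8 for fibers against epithelia in LEGSKO+BSO, LEGSKO and WT.

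Over all genes, DESeq2 called 447 in LEGSKO against WT epithelia, against 127 by edgeR, 565 against 177 in LEGSKO+BSO against WT epithelia, 679 against 109 in LEGSKO+BSO against LEGSKO epithelia, 501 against 220 in LEGSKO against WT fibers, 1138 against 742 in LEGSKO+BSO against WT fibers and 81 against 4 in LEGSKO+BSO against LEGSKO fibers. For the interactions it called 78, 302 and 61 against 16, 43 and 5 (LEGSKO against WT, LEGSKO+BSO against WT, LEGSKO+BSO against LEGSKO). The replicate block gave 46 in LEGSKO+BSO against LEGSKO epithelia, 143 in LEGSKO against WT fibers, 2 in LEGSKO+BSO against LEGSKO fibers, 10 in the first interaction and 2 in the third. It shares only a number within a tissue, where same-numbered libraries had r between -0.283 and 0.336, and changed no member's call there other than that of Cacna1c. The third interaction had 2 with the median of ratios, 1 with no filter and 0 with the block within a condition. LEGSKO+BSO against LEGSKO fibers had 14 with no filter and 7 with all 24 libraries, and LEGSKO+BSO against LEGSKO epithelia 250 with all 24. The cause of these changes was not tested.

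Without 1 library the counts of called genes ran from 40 to 183, 41 to 324 and 0 to 442 in epithelia (LEGSKO against WT, LEGSKO+BSO against WT, LEGSKO+BSO against LEGSKO), 61 to 591, 285 to 1075 and 1 to 7 in fibers in the same order, 4 to 46, 12 to 94 and 1 to 8 for the interactions, and 11993 to 12167, 11441 to 11582 and 11631 to 11893 for fibers against epithelia in LEGSKO+BSO, LEGSKO and WT. Among the other calcium genes, the replicate block ended the calls of Slc8a3 (adjusted p = 0.0631), Cacna1i in LEGSKO+BSO against LEGSKO epithelia (0.0626), Orai3 (0.0724) and Pkd2 (0.0648), and the fit of 24 libraries ended those of Slc8a3 (0.0813), of Cacna1i in LEGSKO+BSO against WT (0.0754) and against LEGSKO epithelia (0.235), and of Casq1 in LEGSKO (0.113). Atp2a3 in all libraries, and Atp2b2 and Capn3 in fibers, are limited by counts.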
